A study of Mus musculus with 2 samples.

Results

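Narrow, weakly enriched places made up more than any other kind of JARID2 site in mouse embryonic stem (ES) cells when sites were sorted by width, height and MTF2 signal. They were defined as blocks of 1 to 2 kb in which the JARID2 ChIP-seq library reached 5 to under 10 times its expected read count, with no bin at 5 times or more in the MTF2 library. There were 14033 such sites among 25788 JARID2 blocks on chromosomes 1 to 19, or 54.4% of the blocks. They covered 0.677% of the 1 kb bins in use, meaning bins with a read in either library, and held 3.78% of the JARID2 reads and 0.418% of the MTF2 reads. ChIP-seq recovers the DNA bound by a protein with an antibody and counts the recovered fragments along the genome. The study had 1 library for JARID2 and 1 for MTF2, both from unmodified ES cells of the strain background 129SvJae x C57BL/6 at passages 10 to 15. The cells had been kept without feeder cells for 2 to 3 passages, and the labels name no treatment. On chromosomes 1 to 19 there were 12512741 distinct JARID2 reads and 8563684 distinct MTF2 reads. No replicate and no input DNA was among the samples, so every interval below covers counting error in 1 library and no comparison tests the factors themselves. Markers of the cell type are not read out by these libraries, and the ES cell label was taken as given.

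JARID2 is a DNA-binding protein of the Jumonji family that lacks demethylase activity and helps to bring Polycomb repressive complex 2 (PRC2) to chromatin. PRC2 places methyl groups on lysine 27 of histone H3 and keeps developmental genes silent in ES cells. MTF2 is a Polycomb-like protein that binds unmethylated CpG-rich DNA and is another accessory partner of PRC2. In ES cells PRC2 is best known at CpG islands of silent developmental genes, where its accessory partners are often found together. The positions below follow the deposited files, whose highest coordinates point to the mouse build NCBI 36. That build is an inference from the values. No genome of that build was used, so the sites are named by position, and their genes, sequence and base composition were not analysed here.

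A typical member held a small number of JARID2 reads above a low background. The fold is the read count of a 1 kb bin divided by the mean count per bin of its chromosome, taken over bins up to the 99th percentile. That expected count ran from 3.51 reads on chromosome 3 to 5.83 on chromosome 8. The lower limit therefore corresponded to 18 reads on chromosome 3 and 30 on chromosome 8. The highest bin of a member held 18 to 58 JARID2 reads with a median of 29, and its fold had a median of 6.68. These values chose the members and are given only as a description. Of all bins in use, 1.88% reached 5-fold in JARID2 and 1.08% lay between 5 and 10-fold. Most members, 11942 or 85.1%, were a single bin wide, and the other 2091 were 2 kb wide. The lowest class, 5 to under 6-fold, held 4803 members (34.2%), and numbers fell through 3078, 2481 and 2037 to 1634 (11.6%) at 9 to under 10-fold. The share of members that were 2 kb wide was 4.62% in the lowest class and 28.5% in the highest. A site of low fold may be bound in few cells, weakly in all of them or not at all. These cannot be told apart in bulk chromatin without an input.

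The limits of the rule fell between places of nearly equal JARID2 count, which the narrow fold windows taken on either side fix in advance. The 1154 members at 5 to under 5.2-fold had a median of 22 JARID2 reads in their bin, and the 2057 bins in no block at 4.8 to under 5-fold had a median of 21. At the upper limit, the 290 members at 9.8-fold or more had a median of 42 reads and the 274 similar blocks at 10 to under 10.2-fold a median of 44. MTF2 levels, which these windows do not fix, differed across both limits. At the lower limit the members stood at 0.688-fold (0.662 to 0.714) and the bins in no block at 0.822-fold (0.801 to 0.843). At the upper limit the members stood at 0.612-fold (0.570 to 0.656) and the similar blocks at 0.487-fold (0.448 to 0.528). Reads are whole counts, so such narrow windows hold only some chromosomes, and not the same ones on either side of a limit. The MTF2 level of members differed between chromosomes, from 0.540 on chromosome 11 to 0.756 on chromosome 3. In wider classes it was 0.586 (0.568 to 0.604) at 9 to under 10-fold and 0.557 (0.543 to 0.571) at 10 to under 12-fold. Of all bins in use, 0.178% reached 5-fold in MTF2. The limit on MTF2 kept out 82 narrow blocks of the same JARID2 height, whose pooled MTF2 level was 7.27-fold. Just inside that limit, 66 members had their highest MTF2 bin at 4 to under 5-fold, with a pooled level of 4.03. Just outside it, 29 blocks with a highest MTF2 bin of 5 to under 6-fold had a pooled level of 5.08. The sets on either side of the MTF2 limit were chosen by their highest MTF2 bin, so these pooled levels follow from that choice.

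Most sites that the rule chose on part of the JARID2 reads were again above the expected count in the other reads. The same rule was run on the JARID2 reads whose 5′ end had an odd coordinate, and the sites it chose were then read with the even-coordinate reads. It chose 15592 sites, whose pooled fold was 6.78 (95% interval 6.76 to 6.81) in the reads that chose them and 6.02 (5.99 to 6.04) in the other reads. In those other reads 9286 sites (59.6%, 58.8 to 60.3) again reached 5-fold over the whole site and 14781 (94.8%, 94.4 to 95.1) reached 2-fold. Only 155 sites (0.994%) fell below 1-fold. Narrow sites of 10-fold or more went from 15.1 to 14.4-fold by the same procedure, and 99.1% (98.9 to 99.3) again reached 5-fold. The weak sites were thus lower in reads that did not choose them, and remained well above the expected count. This division of reads says nothing about a second ChIP or about binding, because both parts come from 1 library without an input. The sites chosen this way are also not the same set as the members.

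Inside a member, shifted JARID2 reads of the opposite strands piled up at the same place. A bound fragment gives reads of both strands around 1 place, so the highest 50 bp step of plus-strand reads was located in each member and the minus-strand reads were then counted around it. Minus-strand reads stood at 12.6-fold (12.4 to 12.8) at that step. They stood at 5.59-fold 250 bp upstream in coordinate order and at 8.05-fold 250 bp downstream. Counted in windows of 3 steps, the level at the step was 1.73 times (1.71 to 1.75) that at 200 to 300 bp. Without the shift of the reads, which is what places the strands over each other, this ratio turned to 0.792 (0.781 to 0.803). Narrow sites of 10-fold or more had a ratio of 1.85 (1.83 to 1.87). For lone bins of 3 to under 5-fold, which missed the limit, it was 1.42 (1.40 to 1.43). The strands were balanced, with a median of 50% minus-strand reads in the highest bin, and 26 members (0.185%) had over 90% of those reads on 1 strand. Repeat reads were few, at 1.10 deposited JARID2 reads per distinct read in members against 1.07 in the flanks and 1.12 in the whole library, and 36 members (0.257%) had 3 or more.

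**Figure D1:**
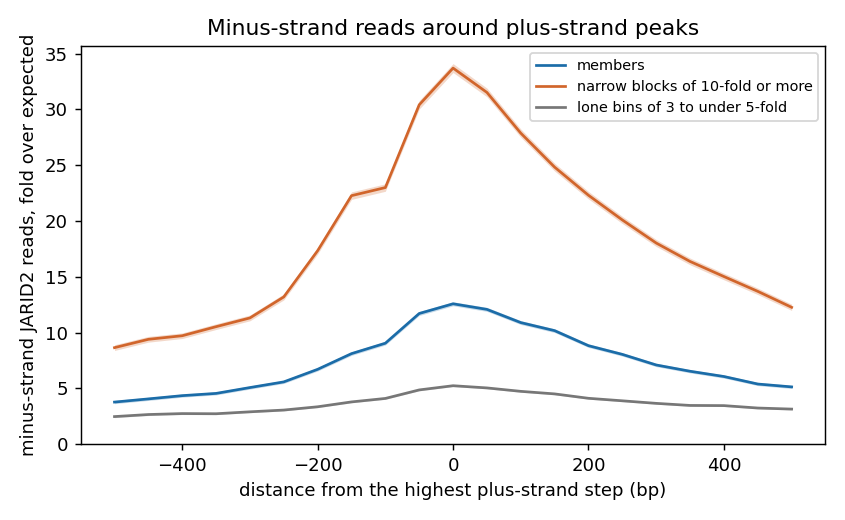
Minus-strand JARID2 reads (fold over expected, vertical axis) against distance in bp from the highest plus-strand 50 bp step, for members, for narrow blocks of 10-fold or more and for lone bins of 3 to under 5-fold; bands are exact 95% Poisson intervals. Members rise to 12.6-fold at the step, between the other sets, and counts use only steps inside each site.

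The sites varied in how tightly the reads were packed. In members of 1 kb the highest 200 bp step held a median of 41.0% of the JARID2 reads, with 10% of members below 30.3% and 10% above 58.3%. The highest step is chosen for its height, which raises its share at such low counts. The median lay between 40% at 9 to under 10-fold and 41.7% at 6 to under 7-fold in the classes of members, and it was 38.5% in 1 kb sites of 10-fold or more. The MTF2 level differed between the tight and the loose sites. It was 0.583-fold (0.559 to 0.608) in the 1053 members of 1 kb with under 30% of JARID2 reads in that step. It was 0.738-fold (0.722 to 0.755) in the 2989 members with at least 50%. The median JARID2 folds of these members were 6.49 and 6.31. The same order, over a wider range, was seen in 1 kb sites of 10-fold or more. Their MTF2 level was 0.369-fold (0.342 to 0.397) in the 561 sites with under 30% of JARID2 reads in that step. It was 0.9496-fold (0.914 to 0.986) in the 823 sites with at least 50%. The difference was thus not particular to members.

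MTF2 reads were scarcer at the members than around them. The 16124 bins of the members held 35777 MTF2 reads, a level of 0.643-fold (0.636 to 0.649). Bins 3 to 5 kb away on either side, outside all JARID2 blocks and under the same MTF2 limit, stood at 0.926-fold (0.922 to 0.929). The ratio of members to flanks was 0.694 (0.686 to 0.702). It lay below 1 on 19 of 19 chromosomes, from 0.610 on chromosome 11 to 0.771 on chromosome 3. A level under 1 means fewer reads than in the mean bin of the chromosome and does not measure binding without an input. The rule used MTF2 only as an upper limit, and bins in no block under the same limit stood at 1.02.

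Bins with few or no MTF2 reads were more common among members. No MTF2 read was found in 3165 member bins (19.6%, 19.02 to 20.3), against 7.69% (7.51 to 7.88) of flank bins and 5.32% of all bins. A count of 0 is a weak statement where 3 to 5 reads are expected. Levels under 0.5-fold occurred in 45.2% of member bins and 24.7% of flank bins, beside 19.2% of all bins. The upper end of the distribution did not thin to the same degree. MTF2 reached 2-fold in 568 member bins (3.52%, 3.24 to 3.82), below the 8.3% of all bins. Flank bins did so in 6.84%. MTF2 reached 3-fold in 159 member bins (0.986%, 0.839 to 1.15), and 1.07% of all bins did so. Under the limit of 5-fold that members had to meet, the share was 0.904% (0.839 to 0.973) in flank bins and 0.889% in all bins, both close to that of the members. The variance of MTF2 reads over member bins was 2.17 times their mean, compared with 1.61 in flank bins.

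**Figure D2:**
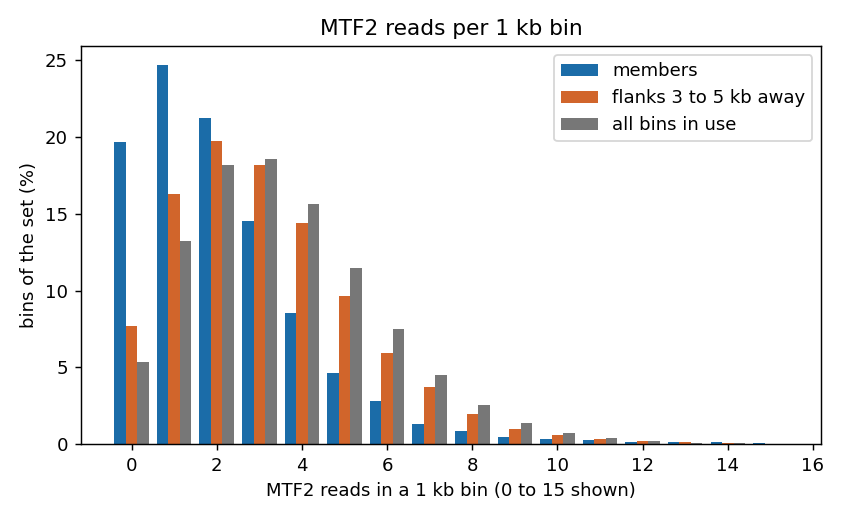
Share of 1 kb bins (%, vertical axis) by number of MTF2 reads in the bin (horizontal axis, 0 to 15 shown) for member bins, flank bins 3 to 5 kb away and all bins in use. Bins without a read make up 19.6% of member bins and 7.69% of flank bins.

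At finer scale the MTF2 level was lowest within 50 bp of the JARID2 summit. The summit was the 50 bp step with the highest JARID2 count, summed with its neighbours, in each of 14031 members with 3000 bp on both sides. The MTF2 level was 0.403-fold (0.378 to 0.429) at that step and 0.396-fold at the next step downstream in coordinate order, which differ by less than the counting error. It rose to 0.562-fold (0.532 to 0.592) 200 bp upstream and 0.524-fold (0.496 to 0.554) 200 bp downstream. At 900 bp it was 0.936-fold (0.897 to 0.975) and 0.926-fold (0.888 to 0.965). Pooled within 100 bp of the summit it was 0.426-fold (0.414 to 0.438) from 5156 reads, and from 2000 to 3000 bp it was 0.936-fold (0.931 to 0.942). The ratio of these was 0.455 (0.442 to 0.468). The interval lay below 1 on 19 of 19 chromosomes, with ratios of 0.386 to 0.546. The position of the summit within a site was not set by the rule, and it was chosen on JARID2 reads alone.

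Among members the dip was deeper at higher JARID2 fold, and it was slight in ordinary bins. In the highest narrow sites its depth depended on the distance it was compared with. The dip's ratio to the level at 2000 to 3000 bp was 0.542 (0.518 to 0.566) in members of 5 to under 6-fold. It was 0.355 (0.323 to 0.390) in those of 9 to under 10-fold. It was 0.717 (0.704 to 0.729) around bins of 3 to under 5-fold with no block within 10 kb. In a set of 1 in 10 bins of 1 to under 2-fold with no block within 10 kb, treated the same way, it was 0.966 (0.957 to 0.976). Narrow sites of 10 to under 15-fold had a ratio of 0.377 (0.357 to 0.398). Sites of 20-fold or more had a ratio of 0.904 (0.855 to 0.955), with raised shoulders on both sides of the summit. Their MTF2 level was 0.924-fold (0.877 to 0.973) within 100 bp and 1.56-fold (1.51 to 1.60) at 400 to 600 bp, where members stood at 0.794-fold (0.783 to 0.805). Against the level at 400 to 600 bp the ratio was 0.593 (0.559 to 0.630) in these sites. It was 0.536 (0.520 to 0.553) in members and 0.983 (0.972 to 0.994) in the bins of 1 to under 2-fold.

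**Figure D3:**
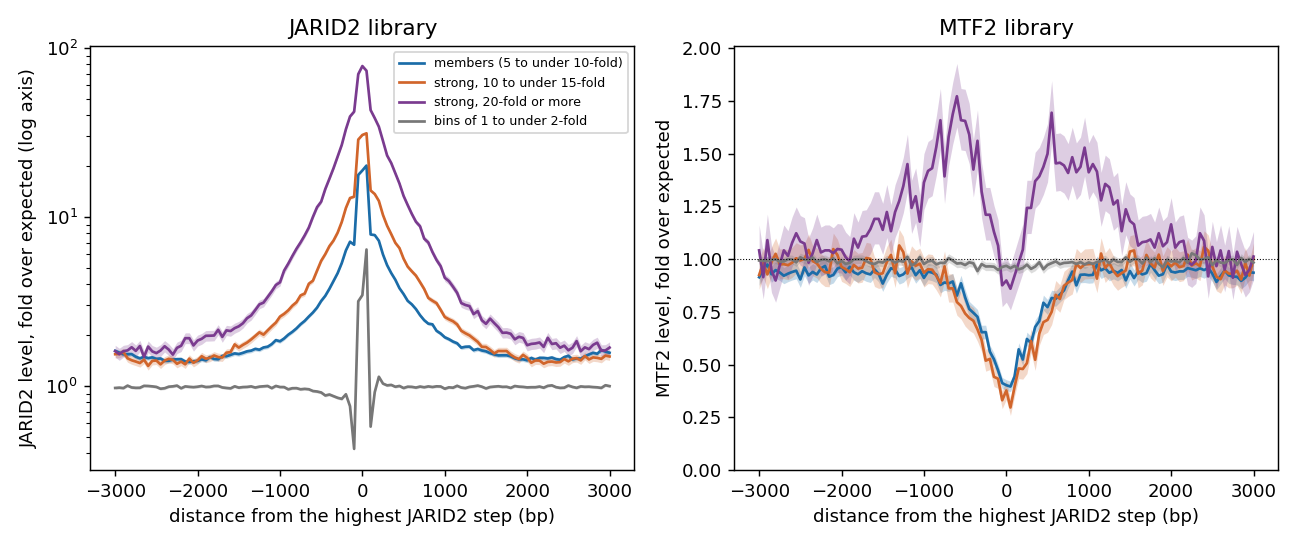
JARID2 level (left, log axis) and MTF2 level (right), both as fold over expected, in 50 bp steps against distance from the highest JARID2 step for members, narrow blocks of 10 to under 15-fold, narrow blocks of 20-fold or more and bins of 1 to under 2-fold; bands are exact 95% Poisson intervals. The JARID2 values from -50 to 50 bp are raised by the choice of the step, and the MTF2 level of members is 0.403-fold at 0 bp.

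Some values moved with the deficit. The MTF2 reads are 52 bp and the JARID2 reads 36 bp long, which can change where reads are placed. Of the deposited MTF2 reads in members, 33.6% (33.1 to 34.0) carried the score 0, whose meaning is not given, against 41.0% (40.9 to 41.2) in the flanks. With those reads left out the ratio of members to flanks was 0.754 (0.743 to 0.764), and the ratio at the summit 0.530 (0.513 to 0.549). The part of read length and of the score in the deficit was not tested beyond that. Base composition was not analysed here.

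Among members the MTF2 level was lower at higher JARID2 fold, and the order turned above them. It was 0.692-fold (0.680 to 0.705) at 5 to under 6-fold JARID2. It was 0.659 (0.645 to 0.674), 0.624 (0.609 to 0.639) and 0.591 (0.575 to 0.608) in the next classes and 0.586 (0.568 to 0.604) at 9 to under 10-fold. The intervals of the last 2 classes overlap. Bins in no block declined as well, from 1.10 below 0.5-fold JARID2 to 0.824 (0.816 to 0.832) at 4 to under 5-fold. Narrow blocks under the same MTF2 limit stood at 0.557 (0.543 to 0.571) at 10 to under 12-fold, the lowest class. They then rose to 0.781 (0.762 to 0.801) at 15 to under 20-fold and 1.56 (1.52 to 1.60) from 30-fold upwards. Over all narrow blocks of 10-fold or more the level was 0.835 (0.826 to 0.844), and members stood at 0.770 times it (0.758 to 0.781). Against only those of 10 to under 15-fold, members stood at 1.08 times (1.06 to 1.11). These sets were not matched in width, as 11942 of 14033 members but 4150 of 7679 blocks of 10-fold or more were 1 kb wide. At 1 kb, members stood at 0.645 (0.637 to 0.653) and blocks of 10-fold or more at 0.656 (0.642 to 0.669), with overlapping intervals. Members as a whole lay above the class of 10 to under 12-fold and below the classes from 15-fold upwards.

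**Figure D4:**
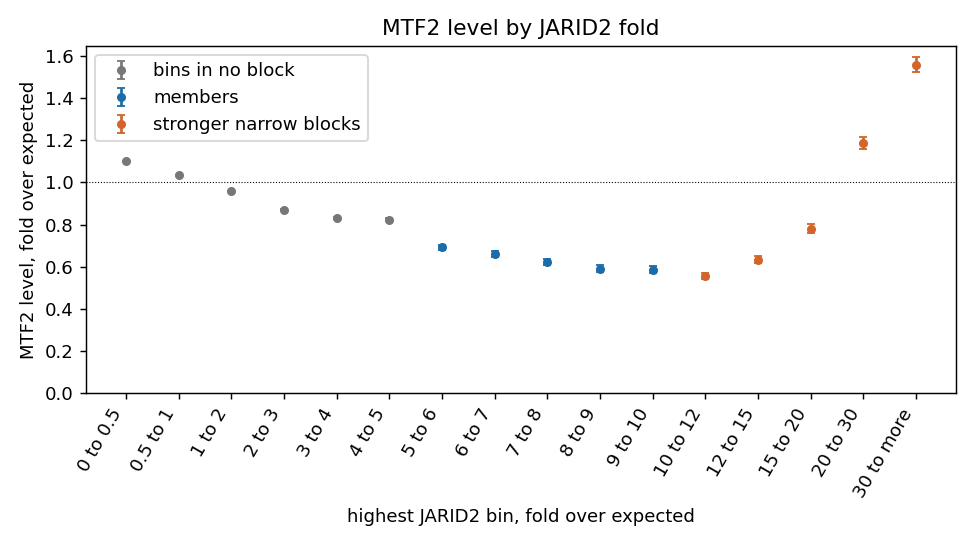
Pooled MTF2 level (fold over expected, vertical axis) by JARID2 fold class for bins in no block, members and stronger narrow blocks, all with no MTF2 bin at 5-fold or more; bars are exact 95% Poisson intervals. The level declines through the members to 0.586-fold and among narrow blocks it is above 1 only from 20-fold upwards.

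Bins in no block include the shoulders of wide blocks, so the lower limit was also read at isolated places. Among bins of 4.8 to under 5-fold with no block within 10 kb the MTF2 level was 0.752 (0.719 to 0.786). In the 693 members of 5 to under 5.2-fold with no other block within 10 kb it was 0.692 (0.660 to 0.726). These intervals overlap. All 9007 members with no other block within 10 kb had a level of 0.644 (0.636 to 0.653), close to that of all members.

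The members near a JARID2 block with strong MTF2 signal had a higher MTF2 level than the rest. Levels of other bins at the same distances are not given here, so the values do not show whether this is particular to members. The 106 members up to 5 kb from a block with an MTF2 bin at 5-fold or more had an MTF2 level of 1.75-fold (1.62 to 1.88). From 5 to 10 kb the level was 1.29 (1.16 to 1.43), and from 10 to 20 kb it was 1.10 (1.01 to 1.19). Members at distances of 20 to 50 kb had 0.886 (0.840 to 0.935), and those 50 to 100 kb away 0.711 (0.677 to 0.746). Beyond 500 kb, where 9335 members lay, it was 0.611 (0.603 to 0.619). Their median JARID2 fold was 6.28 in the nearest class and 6.68 in the farthest. Being near a wide JARID2 block showed less of this. The level was 0.770 (0.715 to 0.827) up to 5 kb from a block of 5 kb or wider and 0.656 (0.647 to 0.665) beyond 500 kb. In the classes between, it ran from 0.601 (20 to 50 kb) to 0.661 (10 to 20 kb) without a steady trend. These wide blocks were taken with or without an MTF2 bin at 5-fold. MTF2 reached 3-fold in 153 members, of which 36 (23.5%, 17.1 to 31.1) lay within 10 kb of a block with MTF2 at 5-fold. Among the other 13880 members 139 did (1.001%, 0.843 to 1.18). Both sides of this comparison were sorted by MTF2, and the share among all bins with MTF2 at 3-fold is not given here.

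Few members, and few stronger narrow sites, lay within 10 kb of a block shared with MTF2 or of a wide JARID2 domain. Blocks with an MTF2 bin at 5-fold were themselves few, at 246 narrow ones and 775 of 3 kb or more. The shares of all bins within such distances were not computed, so the values do not show whether members differ from other places. Of the members, 175 (1.25%, 1.07 to 1.44) lay within 10 kb of a block with MTF2 at 5-fold, and the median distance was 886 kb. Within 10 kb of a block of 5 kb or wider there were 450 (3.21%, 2.92 to 3.51). In narrow sites of 10-fold or more the shares were 1.37% (1.12 to 1.65) and 3.10% (2.72 to 3.51), and the median distance to a block with MTF2 at 5-fold was 870 kb. Narrow shared sites stood nearer to another block with MTF2 at 5-fold, with 24.0% (18.8 to 29.8) within 10 kb. Another JARID2 block of any kind lay within 10 kb of 5026 members (35.8%, 35.0 to 36.6), and the median distance was 19 kb. Narrow sites of 10-fold or more had 32.3% (31.2 to 33.3) within 10 kb. That share of members was 13.2% (12.6 to 13.9) when the expected count was raised to the mean of the surrounding 50 kb on each side, and 41.4% when only adjacent bins were merged. Within 100 kb of no other block were 1786 members (12.7%).

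The members were unevenly distributed along and between chromosomes. Windows of 1 Mb held 0 to 45 members with a median of 4, and the variance over windows was 6.39 times the mean. The 236 fullest of 2364 windows held 35.5% of the members, and 142 windows (6.01%) held none. The fullest windows were chromosome 10 from 80000001 to 81000000 with 45 members, chromosome 7 from 18000001 to 19000000 with 42, and chromosome 7 from 45000001 to 46000000 with 40. They also held 23, 17 and 18 narrow sites of 10-fold or more. Between chromosomes the density ran from 4.63 members per Mb on chromosome 13 to 7.86 on chromosome 11. Across 19 chromosomes it went with the number of protein-coding genes per Mb, with Pearson's r of 0.788 and Spearman's rho of 0.870, and r was 0.730 without chromosomes 7 and 11. For narrow sites of 10-fold or more per Mb, r was 0.696 and rho 0.679, and r was 0.700 without the same chromosomes. The gene numbers come from the RefSeq table of assembly GRCm38.p6, of which no coordinate was used. The density also went with the expected JARID2 count of the chromosome (r 0.525, rho 0.709), which sets the read number a site must reach, and r was 0.772 without chromosomes 8 and 11. These correlations describe chromosomes of 1 library and their causes were not tested.

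The surroundings of members in full windows were poorer in MTF2 reads and richer in JARID2 reads. Members were called against 1 expected count per chromosome, so a raised local JARID2 level by itself lets more bins reach 5-fold. The difference in JARID2 thus follows in part from the grouping. With the expected count raised to the mean of the surrounding 50 kb on each side, 9711 members were called in place of 14033. Where a window held 1 to 3 members, the flanks stood at 1.06-fold MTF2 and 0.811-fold JARID2. Where it held 20 or more, they stood at 0.755-fold MTF2 (0.748 to 0.762) and 1.74-fold JARID2 (1.73 to 1.75). The members themselves went from 0.687-fold MTF2 (0.669 to 0.706) to 0.563-fold (0.550 to 0.577). The ratio of members to flanks was 0.650 (0.632 to 0.669) in the sparse windows and 0.746 (0.727 to 0.766) in the full ones, so it was below 1 at both ends of this range.

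**Figure D5:**
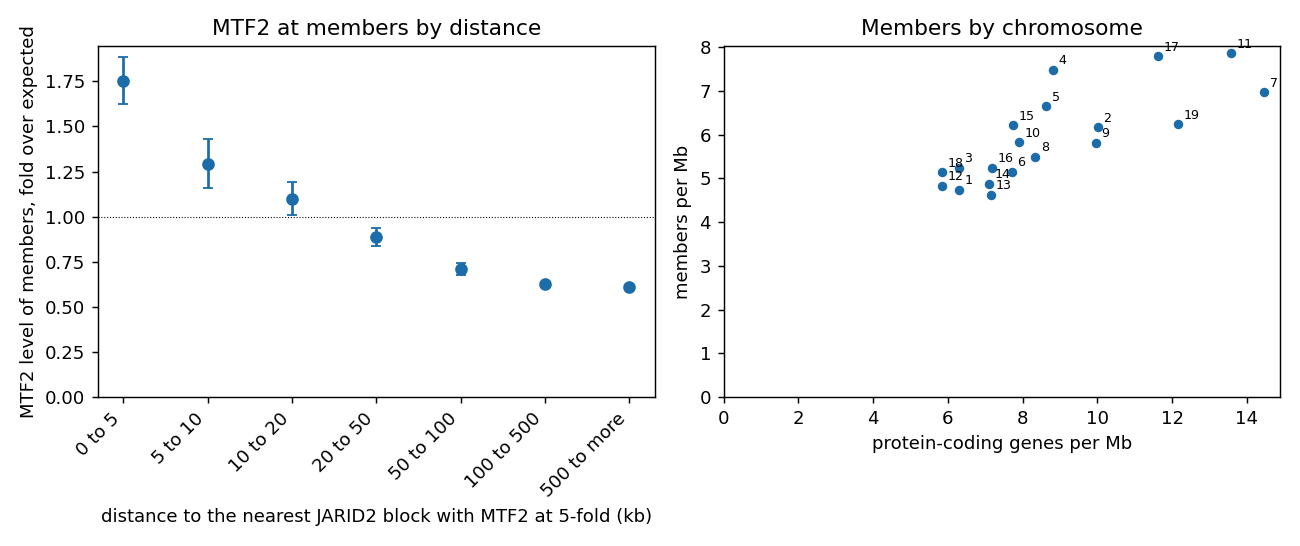
Left, pooled MTF2 level of members (fold over expected) by distance in kb to the nearest JARID2 block with MTF2 at 5-fold, with exact 95% Poisson intervals. Right, members per Mb against protein-coding genes per Mb for chromosomes 1 to 19, labelled by number. The MTF2 level falls from 1.75-fold within 5 kb to 0.611-fold beyond 500 kb, and chromosome 11 has the most members per Mb.

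Single members show how few reads carry each call. At the upper end of the rule, the 5 first members by fold all lay on chromosome 3, where 35 reads give 9.98-fold. They started at 18173001, 27901001, 28996001, 53005001 and 76160001, with 5, 2, 4, 6 and 1 MTF2 reads in that order. The interval of the JARID2 fold at 18173001 was 6.95 to 13.9, so a site at this end cannot be told from one past the limit. At the lower end, the 5 members taken lay on chromosome 5, where 22 reads give 5.01-fold (3.14 to 7.58). They started at 9576001, 18498001, 20485001, 21230001 and 24517001, with 6, 6, 7, 2 and 1 MTF2 reads in that order. Both ends are ties in a whole read count on 1 chromosome.

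The members with the most MTF2 reads for their chromosome were near the limit that defines the set. On chromosome 8 the sites from 19793001, 60302001 and 72497001 each held 23 MTF2 reads, or 4.98-fold (3.16 to 7.47), with 33, 49 and 34 JARID2 reads. On chromosome 4 those from 144950001 and 145064001 held 17 MTF2 reads, or 4.96-fold (2.89 to 7.94), with 32 and 27 JARID2 reads. The first site on chromosome 8 lay 2 kb from a block with MTF2 at 5-fold, and the other 4 lay 13 to 74 kb from one. Their MTF2 intervals reach past the limit.

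The members with the most tightly packed JARID2 reads differed in strand balance and repeats. On chromosome 6 from 138442001 to 138443000, 96.0% of 25 JARID2 reads fell in a single 200 bp step, with 44.0% on the minus strand and 2 MTF2 reads. The site on chromosome 6 from 146488001 had 92.3% of 26 reads in 1 step and 10 MTF2 reads (2.85-fold, 1.37 to 5.25). On chromosome 17, the sites from 87335001 and 69270001 had 92.9% of 28 reads and 91.7% of 24 reads in 1 step, with 6 and 4 MTF2 reads. On chromosome 12 from 119769001, 92.3% of 26 reads fell in 1 step, but only 11.5% were on the minus strand and there were 1.85 deposited JARID2 reads per distinct read. That site, the one from 69270001 with 1.75 and the one from 146488001 with 1.31 had more repeat reads than 90% of members, which had at most 1.18.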

How the data were processed

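Per the labels' protocols, ChIP DNA went through 15 cycles of PCR before sequencing by Genome Analyzer. The authors deposited aligned reads as intervals, with a score per read (0 to 10 in MTF2, 1000 throughout JARID2) whose meaning is not given. The aligner, build and filters were not given in the sources used here. Of 10986401 MTF2 and 14465269 JARID2 reads, 1 per chromosome, strand and 5′ end was kept (81.4% and 89.2%), moved downstream by 70 bp (MTF2) or 100 bp (JARID2) and counted in 1 kb bins. JARID2 bins of 5-fold or more were merged across gaps of up to 1 kb. Pooled levels are summed reads over summed expected reads, with exact Poisson intervals, and ratios and shares have exact Clopper-Pearson intervals, all at 95%. PCR reads without molecular identifiers are not independent molecules, so intervals cover counting error only.

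Python 3.11.15, NumPy 2.4.6, SciPy 1.17.1 and pandas 2.3.3 were used, and the block rule was tested on simulated counts. The members and comparisons were chosen with earlier results of these data known. The summit profile of MTF2, the isolated bins and the grouping by distance, density and concentration were chosen after values were seen. Named members were the 5 highest and 5 lowest by JARID2 fold, the 5 highest by MTF2 level, the 5 with the highest share of JARID2 reads in 200 bp and the 3 fullest windows of 1 Mb, at most 1 site per 100 kb. Alternatives are given in the closing section.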

Additional observations from a re-analysis of the deposited data

How the results depend on the processing

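Alternatives gave 93 values for 8 results, of which 50 remained within 1.5 times (the member count) or within the counting interval (the rest), 42 moved and 1 reversed. The distance and even-coordinate settings, and the MTF2 ratio at the summit, were added after the data were seen. The cause was not tested where values moved, except that without the read shift the minus-strand reads are left a fragment length away from the plus-strand ones. That setting turned the ratio of minus-strand reads at the step from 1.73 to 0.792. The member count ran from 9711 (local background) to 19968 (median as the expected count). With every deposited read kept, the MTF2 level was 0.628, the held-out JARID2 fold 5.89, the strand ratio 1.76 and the share within 10 kb of another block 37.7%. Without the shift, members over strong sites were at 0.752 and the summit ratio at 0.528. Bins starting 500 bp later gave an MTF2 level of 0.633, members over strong sites 0.744 and a strand ratio of 1.76. With the median as the expected count, the MTF2 level was 0.794, members over flanks 0.763, members over strong sites 0.971, the held-out fold 4.76, the strand ratio 1.62, the share near a block 47.4% and the summit ratio 0.572. Local background gave 0.675, 0.716, 0.565, 6.45, 1.78, 13.2% and 0.427 in the same order. Merging adjacent bins only gave an MTF2 level of 0.652, over flanks 0.709, a share of 41.4% and a summit ratio of 0.470. An MTF2 limit of 3-fold gave 0.608, over flanks 0.676, over strong sites 0.852 and at the summit 0.421. Without MTF2 reads of score 0 these were 0.700, 0.754, 0.742 and 0.530. Over 100 kb from blocks with MTF2 at 5-fold they were 0.615, 0.672, 0.750 and 0.435. Leaving out pile-up blocks moved members over strong sites to 0.782, leaving out chromosome 8 moved the held-out fold to 5.99, and choosing on even coordinates moved it to 6.05. No paired analysis was possible because there is 1 library per factor. Depth limits single members: with about 3 to 5 MTF2 reads expected per bin, only pooled levels carry a comparison.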

Other observations

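Chromosome X lay outside the rule for members. The same rule applied there found 971 narrow weak sites among 1779 blocks, or 6.26 per Mb, within the range of 4.63 to 7.86 per Mb on chromosomes 1 to 19. The expected JARID2 count on X was 2.10 reads per bin, so 11 reads were enough to reach 5-fold. The pooled MTF2 level of these sites was 0.925-fold (0.887 to 0.964), above the 0.540 to 0.756 of members on the single autosomes. Their ratio to bins 3 to 5 kb away was 0.761 (0.728 to 0.795), within the autosomal range of 0.610 to 0.771.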
